A study of Mus musculus with 4 samples.

Results

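The Gata and Runx genes encode 2 families of lineage transcription factors, and Zeb1 ChIP-seq peaks were read at all of them: Gata1, Gata2, Gata3, Gata4, Gata5, Gata6, Runx1, Runx2 and Runx3, with Cbfb. These 10 genes were chosen by name, and their peaks are the 19 regions of 17435 in the deposited list whose gene symbol is one of them. The list names 12271 genes in all. In ChIP-seq an antibody pulls down chromatin carrying the protein of interest, and the input, chromatin sequenced without pull-down, serves as background. The mESC were mES-D3 by their labels, written mESC-D3 in the paper, an established mouse embryonic stem cell line. They were grown without feeder layer at passages 5 to 8, in ground state medium (GS). This medium held 1 μM PD0325901, a MEK inhibitor, 3 μM CHIR99021, a GSK-3 inhibitor, and 20 ng/mL LIF. There were 3 Zeb1 ChIP libraries, made with 8 μg of the H-102 antibody, and 1 input library, all of the same line and medium, so that no treatment or genotype is compared. Expression markers of the cells cannot be read from a list of peaks.

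GATA factors are zinc finger proteins that bind the letters GATA in DNA. Gata1, Gata2 and Gata3 are known for blood cell lineages, and Gata4, Gata5 and Gata6 for heart and endoderm. RUNX factors bind DNA through the Runt domain as a dimer with Cbfb, their common non-DNA-binding partner. Runx1 is required for definitive haematopoiesis, Runx2 for bone, and Runx3 acts in T cells and sensory neurons. Each Runx gene is known to have a distal promoter, P1, and a proximal promoter, P2, which give proteins with different N-termini. Zeb1 is a repressor with zinc finger clusters that bind E-box sequences such as CACCTG.

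For each peak the list gives Zeb1 ChIP reads, input reads and enrichment, the ratio of ChIP over input normalized for mapped reads, all as the authors' means over replicates. However, 13 of the 19 ChIP values, and 67.9% of those of all peaks, are not whole reads divided by 3 within 0.01. A plain mean of whole reads over 3 libraries would be. The paper describes scaling of reads to equal depth and normalization with DESeq before averaging, and the terms of each mean are not known. This enrichment was about 2 times the plain ratio of the mean reads, with a median of 2.05 over the 19 peaks and 2.07 over all. The list holds no value per library, so no SD or p can be given for a peak, and differences between peaks have no replicate check. The number of aligned reads per library is not in the list. The labels give a minimum of 20 M raw reads per sample. A region has no peak where fewer than 2 of the 3 libraries met every limit of the peak calling, which included at least 20 ChIP reads, 2-fold enrichment and an FDR limit, or where it fell in a blacklisted stretch of the genome. Positions are those of mm10, and the gene structures those of curated RefSeq transcripts on GRCm38.p6.

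Zeb1 peaks were assigned to 9 of the 10 genes, and 48.5% of the 21887 protein-coding genes of the reference had an assigned peak. The exception was Gata1. Of the 19 peaks, 10 belonged to 5 Gata genes, 7 to the 3 Runx genes and 2 to Cbfb. By the deposited distance, 8 of the 10 genes had a peak centred under 5 kb from the TSS, against 41.1% of protein-coding genes. Gata2 and Runx3 had 4 peaks each, and 1.62% of protein-coding genes had at least 4. The gene with 5 kb flanks on either side held a peak in 9 of the 10 as well, against 57.1% of protein-coding genes. No test was made of these counts, because the genes were picked by name with earlier results of the same list known.

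Of the 19 peaks, 10 were centred under 5 kb from the TSS by the deposited distance, while 61.4% of all peaks were. By the position of the centre in curated transcripts, 4 lay in coding exons, 10 in introns and 5 outside the gene. The shares over all peaks were not counted by this rule, so these counts have no background. The plot of the peaks along each gene shows that the genes differed in their arrangement. The assigned peaks covered nearly the whole of Gata2, lay over the start in Gata3 and Gata5, and upstream of it in Gata6. Those of Cbfb lay over the start and upstream, and those of Runx1 and Runx3 over a start and within the gene. Gata4 had them over the start, upstream and within the gene. Peaks assigned to another gene lay over the start of Gata6, upstream of that of Gata3, within Runx2 and beside the 3´ end of Gata4. Runx2 combined a single assigned peak with the highest enrichment of all 19.

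**Figure D1:**
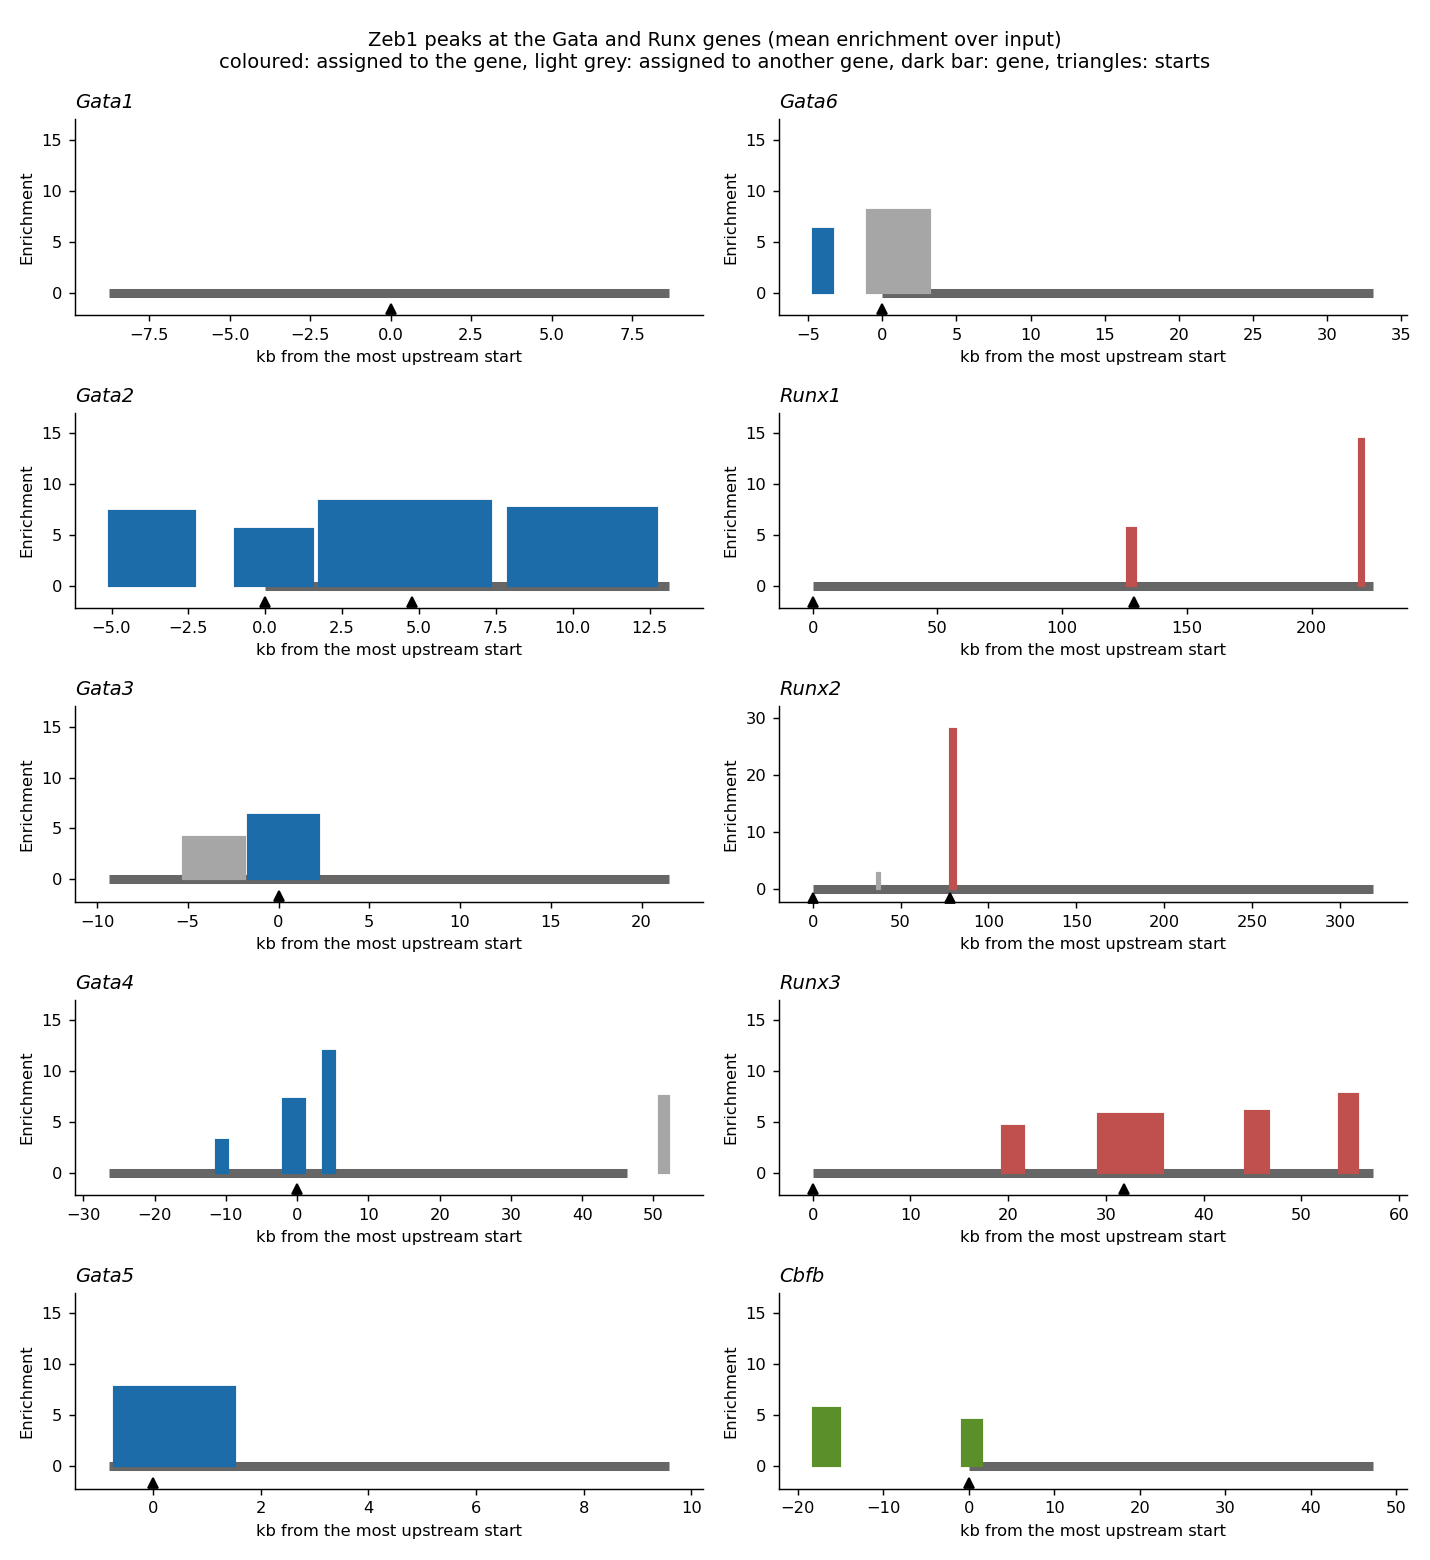
Zeb1 peaks at each gene, in kb from its most upstream curated start in the direction of transcription (x axis) against mean enrichment over input (y axis, to a higher limit for Runx2). Coloured blocks are peaks assigned to the gene, with blue for Gata, red for Runx and green for Cbfb. Light grey blocks are peaks assigned to another gene, the dark bar is the gene with predicted transcripts included, and triangles are curated starts. No block stands over Gata1, and in the 3 Runx genes a block stands at the second start and none at the first.

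Gata2, a factor of blood stem cells, had the most ChIP reads of the 10 genes. It lies at chr6:88193891-88207032 on the plus strand and has 2 curated starts 4773 bp apart. Its 4 peaks ran over 17850 bp, of which 15800 bp, or 88.5%, were in peaks, with gaps of 1300, 200 and 550 bp. They covered 91.4% of the gene. The longest, chr6:88195651-88201250, was centred at -214 bp from the second start (negative values are upstream) and had 258 ChIP reads against 64.9 input reads, an enrichment of 8.33. Fewer ChIP reads were found in 99.9% of all peaks, and a lower enrichment in 73.2%. The peak over the first start, chr6:88192901-88195450, had 94.2 ChIP and 34.2 input reads, an enrichment of 5.62. The peak upstream of the gene, chr6:88188801-88191600, had 120.1 and 33.6 reads (7.31), and that in intron 4 of 5, chr6:88201801-88206650, had 102 and 25.5 (7.65). The region thus stood out in reads and length and not in enrichment, since input reads were high too.

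Near the downstream edge of the long Gata2 peak, 2 matches of the Zeb1 motif lay 10 bp apart on the minus strand, both in intron 3. They are shown because they are the closest pair in the 19 peaks. In the window chr6:88200812-88200911, read on the minus strand, capitals mark 1 match, and the other stands in lower case just before it.
Gata2 intron 3: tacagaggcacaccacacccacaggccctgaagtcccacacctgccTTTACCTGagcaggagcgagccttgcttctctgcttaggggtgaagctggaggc

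Gata3, the factor of T helper 2 cells, lies on the minus strand of Chr. 2. Its peak, chr2:9876351-9880300, was 3950 bp long and spanned the curated start at 9878600. It had 78.7 ChIP and 24.3 input reads, an enrichment of 6.36, with 47.8% of all peaks lower. A further peak, chr2:9880451-9883850, began just beyond it and was assigned to 4930412O13Rik, the neighbouring transcript. That peak had 53 ChIP and 23 input reads, an enrichment of 4.2. The 2 peaks together formed an almost continuous region around the start of Gata3, of which only the part over the start was credited to the gene. In the peak over the start the single Zeb1 motif lay in intron 2.

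Gata4, a cardiac and endodermal factor, had 3 peaks on the minus strand of Chr. 14, with enrichments that ranged from 3.2 to 11.98. The peak over its curated start at 63245271, chr14:63244151-63247250, had 53 ChIP and 15 input reads (7.29). The highest, chr14:63240001-63241700, was centred in coding exon 2 of 7, 4421 bp downstream of the start, with 50 ChIP and 9.4 input reads, and its enrichment of 11.98 exceeded that of 92.6% of all peaks. The third, chr14:63255001-63256650, was centred at -10554 bp and had 21.5 ChIP and 15 input reads, close to the limit of 20 reads. Enrichment was thus highest in the coding exon and not at the start. ChIP reads were similar in these 2 peaks, with 50 over 1700 bp in the exon and 53 over 3100 bp at the start. A further peak beside the 3´ end of the gene, chr14:63193051-63194450, was assigned to Neil2, a DNA glycosylase gene, with 37 ChIP and 11 input reads (7.55). The exonic peak held 1 Zeb1 motif, 140 bp from its centre. It is shown, in the window chr14:63240941-63241040 on the strand of the gene with the match in capitals, because the peak had the highest enrichment of the Gata genes.
Gata4 coding exon 2: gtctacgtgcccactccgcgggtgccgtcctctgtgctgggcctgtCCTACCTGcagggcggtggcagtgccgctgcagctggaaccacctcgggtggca

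Gata5, a factor of early heart endocardium, is a short gene of 10416 bp on Chr. 2. Its only peak, chr2:180333151-180335400, was centred in coding exon 1 of 6, 404 bp downstream of the start at 180334679. It had 102.6 ChIP and 27 input reads, an enrichment of 7.78, and at 45.6 reads per kb it was nearly as dense as the long Gata2 peak, at 46.1. Its single Zeb1 motif lay at -40 bp from the centre, in the coordinates of the chromosome, in coding exon 1, within chr2:180334221-180334250, read on the strand of the gene.
Gata5 coding exon 1: ctccatgctgcCGTACCTGccttcgtgtga

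Gata6, a factor of primitive endoderm and heart, had 2 peaks near its start on Chr. 18, of which the list assigns the weaker one to it. The assigned peak, chr18:11047801-11049150, was centred at -4035 bp and had 30.5 ChIP and 9.5 input reads (6.2). It was the shortest of the 19, at 1350 bp. The peak over the start of Gata6 itself, chr18:11051451-11055700, was 4250 bp long, with 96.4 ChIP and 24.6 input reads (8.13). The list assigns it to 1010001N08Rik, from whose start the centre of the peak is at -1008 bp, while it is 1065 bp downstream of the start of Gata6. By position the Gata6 start was therefore inside a Zeb1 peak, with 71.2% of all peaks lower in enrichment.

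Gata1, the factor of red blood cells and megakaryocytes, lies at chrX:7959260-7976663 and was the only gene of the 10 without a peak in the gene or its flanks. The nearest, chrX:7921451-7923650, lay 35610 bp from the gene and was assigned to Pcsk1n. It had 40 ChIP and 8.5 input reads (10.9). No peak overlapped the start of Gata1, and the list carries no reads outside peaks, so a level below the limits of the list cannot be given.

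The enrichment of the 19 peaks had a median of 6.36, against 6.5 over all 17435 peaks and 6.74 over those under 5 kb from a TSS. The plot of enrichment by gene shows that most values fell inside the quartiles of the list, 4.91 to 8.53. Those above the upper quartile were the peaks of Runx2 (28.1), Runx1 at its 3´ end (14.4) and Gata4 in exon 2 (11.98). Their input reads were 10, 8.67 and 9.4, below the lower quartile of all peaks (11.9). The Gata6 peak had 9.5 input reads at an enrichment of 6.2. The lowest enrichments were those of the upstream Gata4 peak (3.2), the Cbfb start (4.56) and intron 1 of Runx3 (4.65). Of the 19 peaks 9 were above the median of the list.

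**Figure D2:**
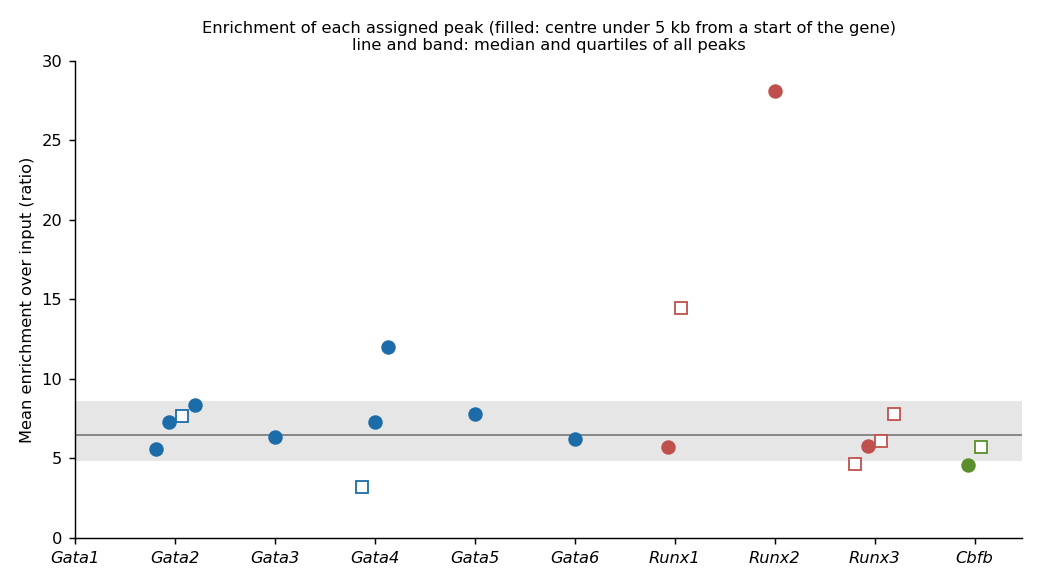
Mean enrichment over input of each assigned peak by gene, with filled circles for centres under 5 kb from a curated start of the gene and open squares for the others. The line and band are the median (6.5) and quartiles (4.91 and 8.53) of all peaks. Runx2 stands alone at 28.1.

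Reads and length set these peaks apart more than enrichment did. The 19 peaks had a median length of 2550 bp, against 1850 bp for all peaks and 1950 bp for those under 5 kb from a TSS, and 16 were longer than the median of the list. Their median was 78.7 ChIP reads, against 47.4, and 24.3 input reads, against 16. Per kb of peak the ChIP reads were close to the list, with 27.1 against 25.1. These are descriptions without a test. The plot of reads per peak shows the Gata2 and Runx1 start peaks at high ChIP and input reads alike, while Runx2 had many ChIP reads and few input reads.

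**Figure D3:**
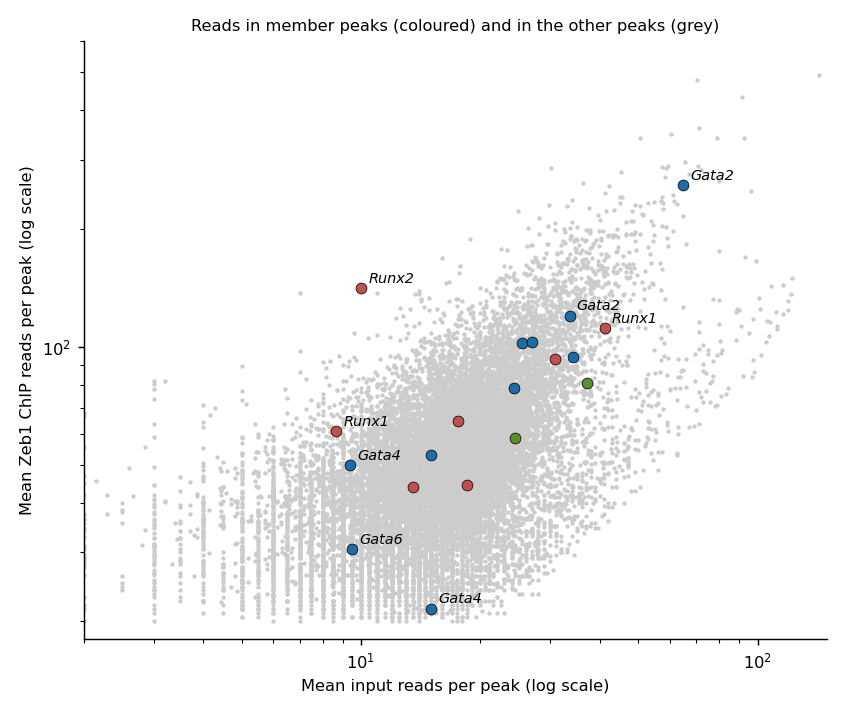
Mean input reads (x axis) against mean Zeb1 ChIP reads (y axis) per peak, both on log scales, for the peaks of the Gata genes (blue), Runx genes (red) and Cbfb (green) and for the other peaks of the list (grey). The axes leave out the most extreme grey points. Runx2 lies at 10 input and 141 ChIP reads, and the long Gata2 peak at 64.9 and 258.

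Runx2, the master factor of osteoblasts, lies on the minus strand of Chr. 17. Its peak, chr17:44733501-44736950, had 141 ChIP and 10 input reads and an enrichment of 28.1, rank 82 of 17435. It was 3450 bp long, and 98.0% of all peaks had fewer ChIP reads. The peak spanned both curated starts of the P2 promoter and was centred in intron 1, 951 bp downstream of the nearest. Its input reads were below the median of the list although 92.0% of peaks were shorter. The P1 start, 78149 bp further upstream, was in no peak. The nearest to it was 36697 bp away, at chr17:44776451-44778100 in an intron of Runx2, and was assigned to the start of Supt3. This peak had 30.7 ChIP and 23 input reads (2.84), among the lowest 3.83% of the list. The single Zeb1 motif of the Runx2 peak lay at -168 bp from its centre, in intron 1. It is shown because this peak had the highest enrichment, within chr17:44735008-44735107 on the strand of the gene, with the match in capitals.
Runx2 intron 1: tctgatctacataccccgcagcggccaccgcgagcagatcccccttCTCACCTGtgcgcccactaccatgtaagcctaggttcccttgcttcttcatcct

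Runx1, the factor of emerging blood stem cells, lies on the minus strand of Chr. 16 and spans 224609 bp, with 2 peaks. The peak over P2, chr16:92696351-92700100, was centred at -896 bp from the P2 start at 92697329 and had 112 ChIP and 41.1 input reads (5.73). The other, chr16:92605051-92607300, was centred 91154 bp downstream, in intron 7 of 7, and reached into the last exon, with 61 ChIP and 8.67 input reads (14.4). It ranked 648 in enrichment, far above the P2 peak, but had fewer ChIP reads. Per kb its ChIP reads were 27.1, against 29.8 at P2, so its higher enrichment went with fewer input reads. P1, 128745 bp upstream of P2, was in no peak, and the nearest was 125974 bp from it. A match of the motif in coding exon 8, the last, is shown for the peak at the 3´ end, within chr16:92605906-92606005 on the strand of the gene.
Runx1 coding exon 8: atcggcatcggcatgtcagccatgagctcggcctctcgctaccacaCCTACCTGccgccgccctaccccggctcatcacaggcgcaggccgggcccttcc

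Runx3 lies on the plus strand of Chr. 4 and had 4 peaks in 57346 bp, none of them under 5 kb from the TSS by the deposited distance. That distance refers to P1. The longest peak, chr4:135149851-135156500, was 6650 bp long and spanned P2, with its centre 630 bp downstream of the P2 start at 135152545. It had 93 ChIP and 30.8 input reads (5.77), and 99.2% of all peaks were shorter. The others lay in the intron after P1 (44.5 and 18.5 reads, 4.65), in a later intron (44 and 13.5 reads, 6.1) and in the last coding exon, chr4:135174501-135176400 (64.6 and 17.6 reads, 7.79). Runx1 and Runx3 thus both had a peak over part of the last exon with a higher enrichment than that at P2, and Runx2 had a peak at P2 alone among those assigned to it.

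Cbfb, the partner of all 3 Runx proteins, lies on the plus strand of Chr. 8. The peak over its start, chr8:105169851-105172250, had 80.7 ChIP and 37.1 input reads, and its enrichment of 4.56 was the lowest of the peaks over a start. Its ratio of observed to expected CpG, 0.926, was above that of 98.6% of all peaks. A second peak, at -16699 bp, chr8:105152401-105155550, had 58.5 and 24.5 reads (5.7). The partner gene was thus covered at its start as the Runx P2 promoters were, at a lower enrichment than each of them.

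Across the 10 genes there were 14 curated starts, counted after those within 500 bp were merged, and 10 of them were inside a Zeb1 peak, against 44.5% of the starts of all protein-coding genes. The 10 belonged to 9 genes, and 47.8% of protein-coding genes had a start in a peak. The 4 starts outside peaks were that of Gata1 and the P1 starts of Runx1, Runx2 and Runx3. Of 1403 protein-coding genes with starts at least 5 kb apart, 12.7% had the most downstream start in a peak and the most upstream not, as in each of the 3 Runx genes. The reverse, a peak at the most upstream start alone, was seen in 39.3%, both in 10.9% and neither in 37.1%. Gata2, whose starts are closer than 5 kb, had a peak over each.

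The sequences upstream of P1 and P2 are shown because the 2 promoters of each Runx gene differed in their peaks. Each is the stretch from 250 to 81 bp upstream of the start in the direction of transcription, from RefSeq's genome sequence, and capitals mark CpG dinucleotides. Where curated starts were merged, as at P1 and P2 of Runx2, the most upstream start was taken. The regions are chr16:92826155-92826324 and chr16:92697410-92697579 for Runx1, chr17:44814878-44815047 and chr17:44736729-44736898 for Runx2, and chr4:135120395-135120564 and chr4:135152295-135152464 for Runx3.
Runx1 P1, in no peak: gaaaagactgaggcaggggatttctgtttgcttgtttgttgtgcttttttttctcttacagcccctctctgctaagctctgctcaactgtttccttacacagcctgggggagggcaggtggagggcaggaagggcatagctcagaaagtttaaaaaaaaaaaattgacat
Runx1 P2, in a peak: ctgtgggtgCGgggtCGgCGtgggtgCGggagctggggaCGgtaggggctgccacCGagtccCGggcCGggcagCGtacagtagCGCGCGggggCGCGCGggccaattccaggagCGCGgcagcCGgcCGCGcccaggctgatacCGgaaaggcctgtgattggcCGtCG
Runx2 P1, in no peak: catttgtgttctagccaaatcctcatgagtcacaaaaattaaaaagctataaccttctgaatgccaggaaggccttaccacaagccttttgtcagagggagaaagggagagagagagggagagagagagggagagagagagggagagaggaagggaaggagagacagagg
Runx2 P2, in a peak: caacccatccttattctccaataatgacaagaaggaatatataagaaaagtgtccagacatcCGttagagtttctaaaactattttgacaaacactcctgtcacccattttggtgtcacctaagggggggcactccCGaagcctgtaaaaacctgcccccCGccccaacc
Runx3 P1, in no peak: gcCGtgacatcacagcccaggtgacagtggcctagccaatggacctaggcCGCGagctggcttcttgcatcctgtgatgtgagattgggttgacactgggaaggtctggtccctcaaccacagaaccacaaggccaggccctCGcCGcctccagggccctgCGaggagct
Runx3 P2, in a peak: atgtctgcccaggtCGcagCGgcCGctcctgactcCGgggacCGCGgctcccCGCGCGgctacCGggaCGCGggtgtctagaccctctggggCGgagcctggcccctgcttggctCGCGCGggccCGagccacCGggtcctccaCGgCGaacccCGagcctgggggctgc

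In the full 250 bp upstream of the start, Runx1 had 2 CpG at P1 and 27 at P2. Runx2 had 0 and 4, and Runx3 had 8 and 38. The P2 promoter therefore had more CpG in each Runx gene, though that of Runx2 had fewer than P1 of Runx3. The count at P2 of Runx2 depends on which of its 2 merged starts is taken, since the 250 bp upstream of the other, at 44736176, had 30 CpG. At P1 of Runx2 both starts had 0. The 7 other starts inside peaks had 11 (Gata6) to 26 (Gata4), and Gata1 had 2. Over all starts of protein-coding genes the median was 18 CpG for the 10749 inside a peak and 4 for the 13419 outside, as the plot of CpG by start shows. Counted from the upstream start, Runx2 P2 had the fewest of the starts in peaks. The whole Runx2 peak had 227 CpG and a GC content of 61.6%, higher than in 93.8% of peaks. What part CpG content has in where peaks were found was not tested.

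**Figure D4:**
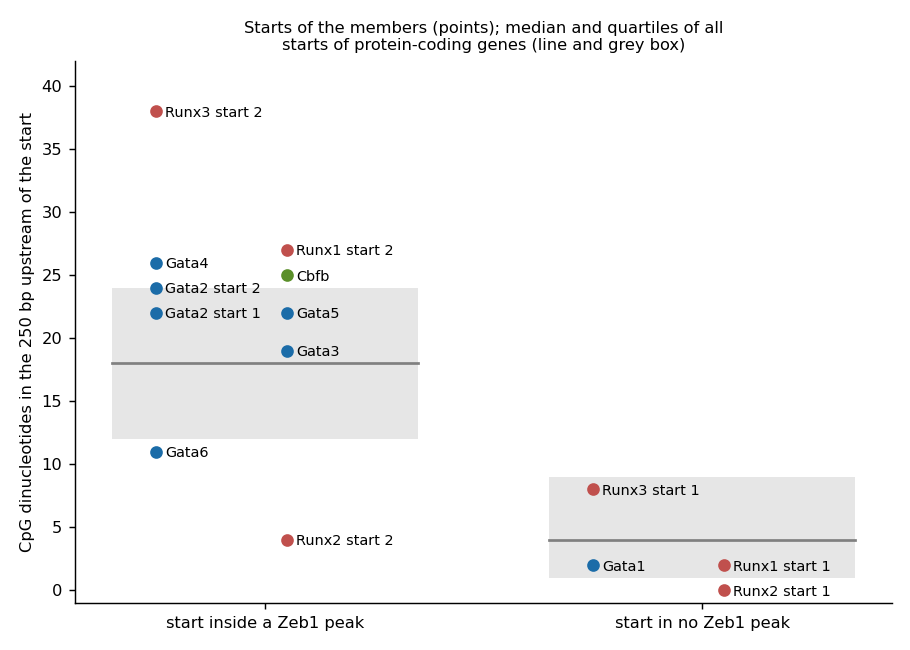
Number of CpG dinucleotides in the 250 bp upstream of each curated start (y axis) for starts inside and outside a Zeb1 peak (x axis). Points are the 14 starts of the 10 genes, numbered from the most upstream (merged starts are counted from the most upstream of them), and the grey box and line are the quartiles and median of all starts of protein-coding genes. Starts outside peaks sit between 0 and 8, and of those inside only the second start of Runx2, at 4, lies in that range.

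The Zeb1 motif searched by the study was read on both strands as CNCACCTG, CNTACCTG, TNCACCTG or TNTACCTG, where N is any base. It was present in 17 of the 19 peaks, or 89.5%, against 76.8% of all peaks. The share averaged over peaks within 10% of the length of each of the 19 was 85.9%. The 2 peaks without a match were those of Gata6 upstream of its start and of Cbfb at its start. The peak over the Gata6 start, assigned to 1010001N08Rik and so not among the 19, had 2 matches. The 19 peaks held 46 matches, or 0.793 per kb against 0.889 per kb in all peaks, so the motif was not denser here. Within 200 bp at the centre, 3 of the 19 had a match, in Gata2 intron 4, Gata5 and an intron of Runx3, and 16.7% of all peaks had one.

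The matches were spread along the peaks, as the plot of motif positions shows. The long peaks of Gata2 and Runx3 had 7 each and the third Runx3 peak had 6. The peaks with the highest enrichment had few, with 1 in Runx2, 2 in Runx1 at the 3´ end and 1 in Gata4 exon 2. Those with the lowest enrichment had few as well, with 1 in the upstream Gata4 peak, 0 at the Cbfb start and 1 in intron 1 of Runx3. The shorter E-box CACCTG, which overlaps the motif, was found in 18 of the 19 and in 82.1% of all peaks (89.6% at like length). In the 250 bp upstream of the 14 starts the motif occurred once, at P1 of Runx1, which was in no peak. There the match was on the strand opposite to the gene. Among starts of all protein-coding genes the motif was in 12.6% of such stretches inside peaks and 13.8% outside.

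**Figure D5:**
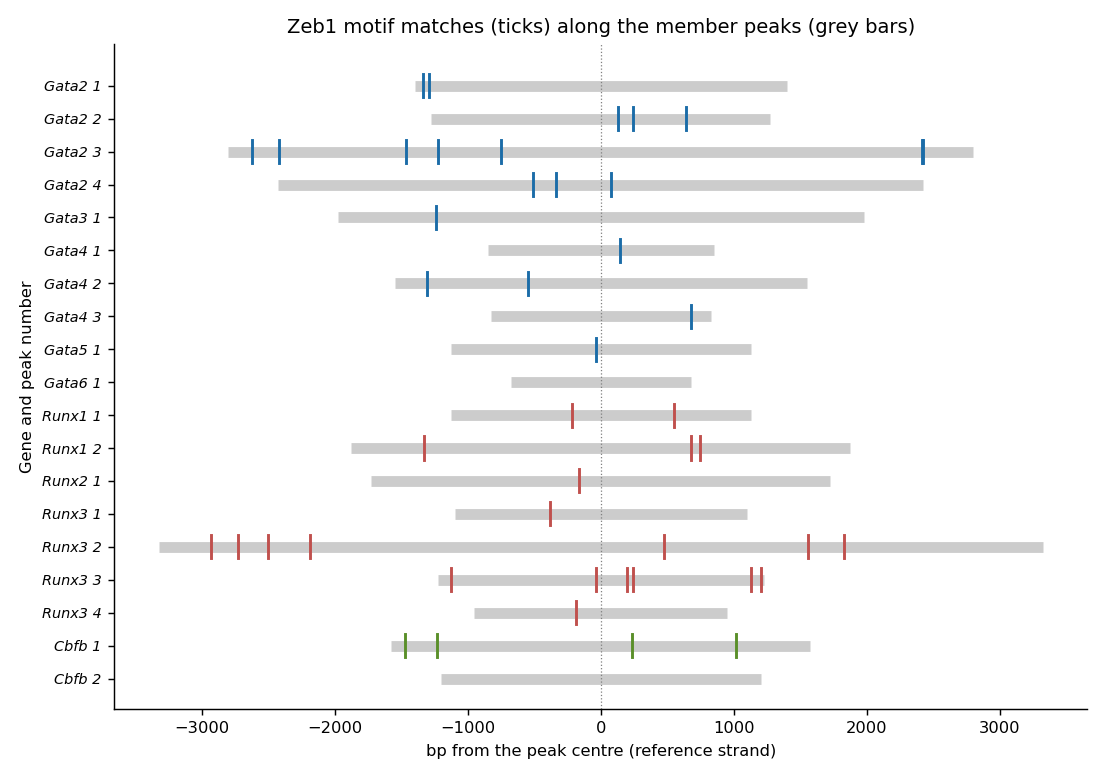
Matches of the Zeb1 motif (ticks) along each of the 19 peaks (grey bars to scale), in bp from the peak centre on the reference strand. Peaks of a gene are numbered by position, and blue, red and green mark Gata, Runx and Cbfb. The assigned Gata6 peak and the second Cbfb peak have no tick, and ticks do not gather at the centre. The peak over the Gata6 start, assigned to another gene, is not drawn.

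The binding letters of the 2 families themselves were searched in the same way. A GATA motif, read as AGATAA or as AGATAG and, with a leading T, as TGATAA or as TGATAG on both strands, was in 18 of the 19 peaks, against 90.1% of peaks of like length. A RUNX motif, read as TGTGGT or as TGCGGT, was in 17 of the 19, against 86.8%. Per kb there were 0.862 GATA matches, against 1.17 in all peaks, and 0.879 RUNX matches, against 0.860. Neither count says anything of binding by these factors. None of the 19 peaks was centred on a LINE, LTR or SINE element in the deposited annotation, and 17.1% of all peaks were. The centre was labelled CpG in 5 of the 19 peaks and in 14.03% of all.

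Of 18 cofactors and blood transcription factors known to work with GATA and RUNX proteins, 16 had an assigned peak and 15 had one under 5 kb from the TSS, against 48.5% and 41.1% of protein-coding genes. Those without an assigned peak were Spi1, the myeloid factor PU.1, and Gfi1b, a repressor of the erythroid lineage. Erg had 1 peak, but none under 5 kb from the TSS. The 37 peaks of this group had a median enrichment of 7.1, with a range of 2.47 to 13.7. The highest were at Fli1, an Ets factor of endothelium and megakaryocytes (13.7), and Runx1t1, the corepressor ETO (11.8). The lowest best peaks were at Nfe2, an erythroid leucine zipper factor (4.8), and Cbfa2t2, a relative of ETO (5.13). The cofactors of GATA proteins also had peaks, with 6 at Zfpm1 (highest 10.5) and 1 at Zfpm2 (8.2). The share with a peak was 88.9% in this group and 90% in the 10 genes, a description without a test.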

How the data were processed

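Zeb1 ChIP (3 libraries) and input (1 library) were sequenced on Ion Torrent. The authors trimmed the reads, drew an equal number per sample, aligned them uniquely to mm10 with STAR 2.4.2a, removed duplicates with Picard 1.136, called peaks per library against the input with PeakRanger, applied limits on reads, enrichment and FDR, left out blacklisted regions, kept and unified peaks of at least 2 libraries, and took genes from Homer 4.7. The deposited read columns are a signal, the authors' mean reads per peak over replicates, although most values are not a whole number divided by 3. Enrichment was deposited as a ratio normalized for mapped reads, again averaged. A p-value of 0 stands in every one of the 17435 deposited rows, so that column ranks nothing and was left aside. Mean values do not show which library gave the reads.

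Here, peaks were selected by the gene symbol of the list, 94.9% of whose peaks carry a symbol of the RefSeq table. Distances are negative upstream of the TSS, the opposite of the file's legend, as read from the positions of the starts. Sequence and transcripts came from GRCm38.p6. The motif search was tested on simulated sequences. The genes and lists were chosen with earlier results of these data known. All 10 genes are named with all of their peaks. Of the other lists, the 2 genes with the highest and the 2 with the lowest best enrichment are named. Beside them stand Zfpm1, Zfpm2, Erg, T, Eomes and the genes without a peak (Spi1, Gfi1b, Gatad1, Gatad2b, Trps1, Tbx10, Tbx19 and Tbx22). These genes of the other lists were named after their values were seen. Alternatives were other distances, assignments, limits and motif searches. The scripts ran in Python 3.11.15 with pysam 0.24.0, pandas 2.3.3, NumPy 2.4.6, matplotlib 3.10.9 and SciPy 1.17.1.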

Additional observations from a re-analysis of the deposited data

How the results depend on the processing

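The number of genes with an assigned peak was 9 in the list as deposited, by gene body with 5 kb flanks, with synonyms and with an enrichment of at least 5, and 8 with at least 40 ChIP reads, where Gata6 was lost. The number with a peak near the TSS, 8 under 5 kb, was 7 within 1 kb, 8 within 10 kb, 9 with every RefSeq start (Runx3 gained) and 7 with an enrichment of at least 5 (Cbfb lost). The share of all protein-coding genes was not counted at the changed distances, starts, reads and enrichment. These counts therefore describe the chosen genes only, without a background. The median enrichment of 6.36 was 7.79 over the best peak of each gene and 6.82 over peaks under 5 kb, and lay between 6.2 and 7.29 when each gene was left out in turn. The median percentile in enrichment, 47.8, was 51.1 within the promoter class and 53.3 among peaks of like length. The Zeb1 motif, in 17 peaks, was in 12 on the forward strand (54.4% of all peaks), 18 as the E-box and 3 in the 200 bp at the centre, a shorter stretch. The median ChIP reads, 1.66 times that of the list, were 1.08 times per kb. No paired analysis was possible because the list holds means without replicate columns, and for the same reason no fit without a library was made. An equal number of reads was drawn per sample, and the number aligned per library is not in the list.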

Other observations

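Of 9 other genes with a GATA-type zinc finger, 6 had an assigned peak, each with a peak under 5 kb from the TSS, against 48.5% and 41.1% of protein-coding genes. The highest enrichment was at Mta2, a subunit of the NuRD deacetylase complex (15.5), followed by Gatad2a, another NuRD subunit (9.84). The lowest best peaks were at Mta3 (6.4) and Zglp1, a germ cell factor (6.84). Gatad1, Gatad2b and Trps1 had none.

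Of 17 T-box genes, a second family of lineage factors, 14 had an assigned peak, against 48.5% of protein-coding genes. The median enrichment was 7.6 over their 31 peaks and 6.5 over all peaks of the list. The highest were at Tbx1, a factor of pharyngeal and outflow tract development (13.7), and Tbx20, a cardiac factor (11.8). The lowest best peaks were at Tbx6, a factor of paraxial mesoderm (3.3), and Tbx5, a cardiac and forelimb factor (3.45). The mesendodermal factors T and Eomes had best enrichments of 8.93 and 4.92. Tbx10, Tbx19 and Tbx22 had no assigned peak. These counts were not tested against those of the Gata and Runx genes.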
